A study of Mus musculus with 2 samples.

Results

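Within the cells that the deposited metadata put in the cell cycle class G2/M, late deuterosomal cells were compared with cycling progenitors. The members were 73 late deuterosomal cells, 52 in replicate 1 and 21 in replicate 2, and 25 cycling progenitors, 17 in replicate 1 and 8 in replicate 2. These 98 cells were all cells with both labels that fit the rule, out of 338 cells of class G2/M and 16401 cells in all. The class held 11.8% of the late deuterosomal cells of replicate 1 (exact 95% interval 8.95% to 15.2%) and 16.8% of those of replicate 2 (10.7% to 24.5%). It held 3.27% of the cycling progenitors of replicate 1 (1.92% to 5.18%) and 3.35% of those of replicate 2 (1.46% to 6.49%).

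The cells came from cultures of the lateral ventricular walls of newborn mice (P0-P2), grown to confluence, freed of loosely attached cells by shaking and kept in serum-free medium for 2 days to differentiate into ependymal cells. Replicate 1 was C57BL/6N and replicate 2 was C57BL/6J, so substrain and library cannot be told apart, and no other allele or agent is named. Both labels were read from the same culture and the same 10x 3′ library in each replicate, so the compared groups share substrain, age and treatment. The sources used here do not say how cells were given their label and class, and whether the 2 cultures were separate litters or days is not stated. If label and class were drawn from these same counts, differences in their marker genes were partly set in advance. P-values and shares of cells for such genes then describe the labels and are no separate evidence.

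Multiciliated cells leave the cell cycle and then build many centrioles, partly on deuterosomes, platforms that are particular to these cells. During this work they switch on part of the machinery that dividing cells use to enter and leave mitosis, with the CDK1 kinase, its cyclins and the anaphase-promoting complex (APC/C) among it, yet they do not divide. Ependymal cells, the ciliated lining of the brain ventricles, arise from radial glia in this way. Comparing both labels inside 1 cell cycle class asks which parts of the mitotic programme the non-dividing cells carry.

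The summed UMIs were 1024457 and 322975 in the late deuterosomal cells and 251197 and 121933 in the cycling progenitors of replicates 1 and 2. Levels are given as counts scaled to the total of the summed cells (CPM), and 1 UMI was worth 0.976 and 3.1 CPM in the late deuterosomal sums and 3.98 and 8.2 CPM in the progenitor sums. Cells differed in depth, with medians of 17796.5 and 15169 UMIs in late deuterosomal cells and 14079 and 11732.5 in cycling progenitors. The median mitochondrial share was 3.59% and 3.25% in replicate 1 and 6.18% and 5.84% in replicate 2. The 2 libraries shared 13 cell barcodes, 0 of them among the compared cells.

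After each cell was thinned to 5000 UMIs, all 70 late deuterosomal cells deep enough held a UMI of Meig1, a gene of motile cilia, against 5 of 25 progenitors. All 25 progenitors held Fabp7, a gene of radial glia, against 42 of 70 late deuterosomal cells. The genes that define mitosis were low for the name of the class. The 21 genes of G2/M entry (kinases, cyclins and phosphatases) summed to 1780 and 1670 CPM in late deuterosomal cells and 1630 and 1680 CPM in progenitors of class G2/M, against 5670 and 5650 CPM in cycling progenitors of class S/G2 and 4040 and 3500 CPM in late deuterosomal cells of class S/G2. Plk1, the polo kinase of mitosis, had 15 and 0 UMIs in the late deuterosomal sums and 0 and 1 in the progenitor sums. Aurkb, the kinase of the chromosomal passenger complex, had 10 and 5 UMIs against 0 and 0, and Fbxo5, the early mitotic inhibitor of the APC/C, had 0 in all 4 sums. In both labels the cells of class G2/M therefore held fewer transcripts of these regulators than the cells of class S/G2, and the class is used below only as its deposited name.

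Of 13052 genes tested with edgeR's quasi-likelihood test, 1509 (11.6%) were higher and 857 (6.57%) were lower in late deuterosomal cells at a Benjamini-Hochberg adjusted p under 0.05, 18.1% in either direction, and 63.8% of the calls were higher. Both late deuterosomal sums lay above both progenitor sums for 29.2% of the genes, and below them for 22.5%. The counts of genes called moved to 1210 higher and 1062 lower with DESeq2's Wald test. The median log2 fold change of all genes was 0.18, which fell to 0.13 with DESeq2 size factors and to 0.07 with library totals, and single differences are to be read against that shift. Without replicate 1 the counts were 522 and 367, and without replicate 2 they were 1001 and 574. The lone sums are then assumed to vary like the other groups in the fit. P-values rest on the spread between libraries within groups that is left after the library block, pooled over 32 sums in 16 groups. Most of these groups are not the 2 compared. Log2 fold changes below are late deuterosomal minus cycling progenitors in class G2/M, from 2 sums a side, with adjusted p from edgeR. Each SE is the absolute log2 fold change divided by the square root of the quasi-likelihood F statistic. It restates the test and is no separate estimate of spread.

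Among mitotic genes, calls were made in both directions. Over the 7 lists of mitosis and APC/C genes, 16 of 146 were higher in late deuterosomal cells, near the 11.6% of all genes, and 18 (12.3%) were lower, beside 6.57% of all genes, with a median log2 fold change of 0.36 beside 0.18 over all genes. Cdk1, Ccna1, Top2a, Cdc20 and Ube2c were among the genes that were higher, and Ccnb2, Tpx2, Cenpf, Cdca8, Birc5 and Mki67 among those that were lower. Without replicate 1 the counts were 4 higher and 12 lower, and without replicate 2 they were 12 and 15. In the summed level, with each cell thinned to 5000 UMIs, the 6 mitosis lists (125 genes) gave a median of 27 and 26 UMIs per late deuterosomal cell and 31 and 34 per progenitor.

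**Figure D1:**
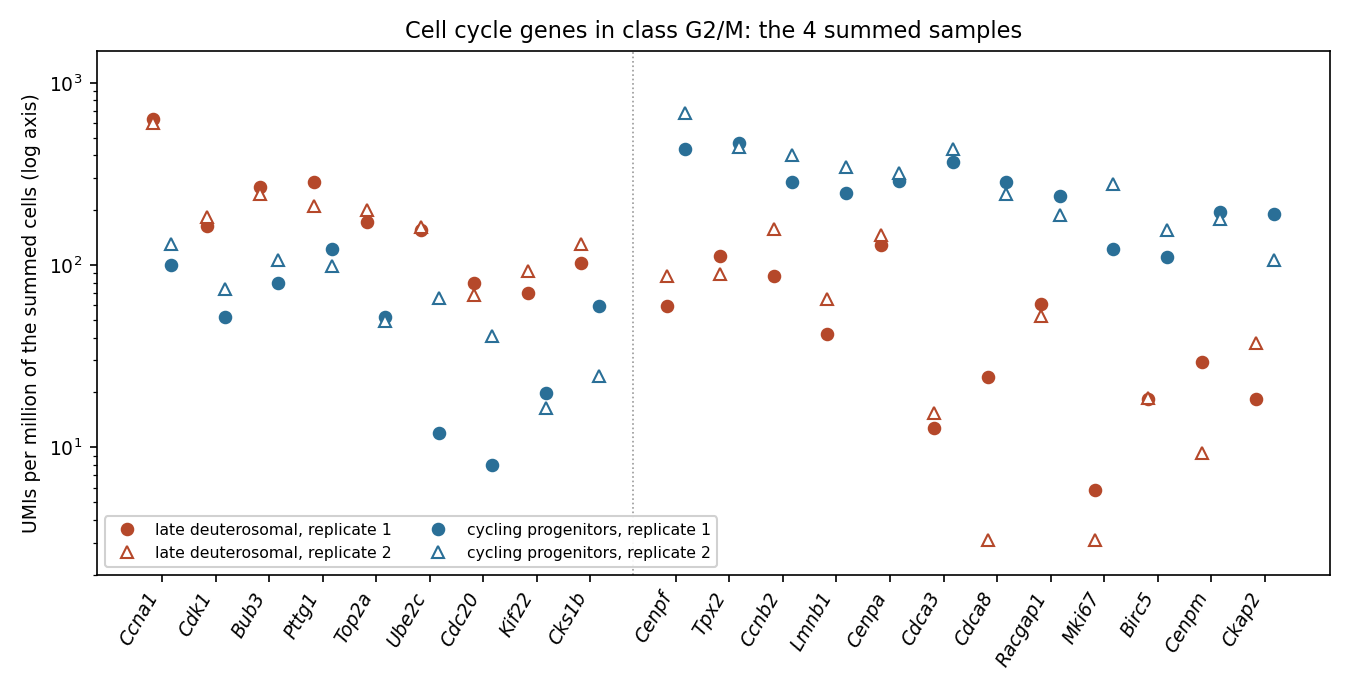
Levels of 21 cell cycle genes in the 4 summed samples of class G2/M, as CPM on a log axis; filled circles are replicate 1 and open triangles replicate 2, with late deuterosomal cells in red and cycling progenitors in blue. The 9 genes left of the dotted line are higher in both late deuterosomal sums (Ccna1 at 635 and 601 against 99.5 and 131), and the 12 genes right of it are lower in both (Cenpf at 59.5 and 86.7 against 434 and 681). All were picked from genes past the test in these sums. Of all genes, 29.2% were higher and 22.5% lower in both sums.

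Several of the genes on both sides share promoter elements, which are shown here because the directions differed among genes that usually rise in the same phase. The cell cycle genes homology region (CHR, TTTGAA) is bound by complexes that hold such genes off in resting cells and turn them on in G2, and the CCAAT box (CCAAT) is bound by NF-Y. In each stretch, taken from RefSeq promoter windows on GRCm38.p6 (mm10) and written 5′ to 3′ on the gene's strand, capitals mark a CHR or a CCAAT box on either strand (as TTTGAA or TTCAAA, and CCAAT or ATTGG).
Cdk1 (higher; chr10:69352938-69353023, minus strand, upstream of the gene's start): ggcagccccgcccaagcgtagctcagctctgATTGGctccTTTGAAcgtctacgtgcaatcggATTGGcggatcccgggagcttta
Top2a (higher; chr11:99024323-99024408, minus strand, upstream of the start): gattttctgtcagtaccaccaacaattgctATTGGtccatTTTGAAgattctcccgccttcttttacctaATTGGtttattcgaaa
Cdc20 (higher; chr4:118437344-118437401, minus strand, up to the start): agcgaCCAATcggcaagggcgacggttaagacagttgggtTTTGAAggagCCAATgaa
Ube2c (higher; chr2:164769860-164769928, plus strand, up to the start): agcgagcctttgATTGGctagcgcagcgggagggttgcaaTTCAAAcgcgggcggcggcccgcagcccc
Mki67 (lower; chr7:135716450-135716535, minus strand, upstream of the start): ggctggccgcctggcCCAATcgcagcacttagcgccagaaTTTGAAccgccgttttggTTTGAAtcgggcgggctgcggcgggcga
Ccnb2 (lower; chr9:70421676-70421761, minus strand, upstream of the start): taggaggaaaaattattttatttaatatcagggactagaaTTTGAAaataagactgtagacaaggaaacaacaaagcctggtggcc
The same letters occurred on both sides. In windows from 250 bases before to 50 after the start, a CHR was found in 9 of 15 genes that were higher and 8 of 16 that were lower, in 47.2% of the 127 tested mitosis and APC/C genes with a window and in 14.0% of the 10157 tested genes with one. The CCAAT box was found in 73.3%, 75.0%, 63.0% and 43.3% of these sets. Some genes have several windows, and a match of 5 or 6 letters is a description and not a site.

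Among the 21 genes of G2/M entry, 3 were higher, 2 were lower and 16 did not pass the test, with 11.6% and 6.57% of all genes higher and lower. Ccna1, the cyclin A known mainly from germ cells, stood at 635 and 601 CPM in late deuterosomal cells and at 99.5 and 131 CPM in progenitors. It was 6.11-fold higher (log2 2.61, SE 0.37, adjusted p = 6.49e-05), and the call held in each library alone. Cdk1, the kinase that drives mitotic entry, stood at 163 and 183 CPM against 51.8 and 73.8 CPM and was 3.08-fold higher (log2 1.62, SE 0.30, adjusted p = 3.58e-05). Cks1b, a small subunit that binds CDKs, stood at 102 and 130 CPM against 59.7 and 24.6 CPM (log2 1.29, SE 0.30, adjusted p = 0.00115). The late deuterosomal sums were above both progenitor sums for all 3 genes, as for 29.2% of all genes. These 3 were picked as called higher from the same sums, so this is no further evidence. With equal cell numbers Cdk1 missed the test (log2 1.17), and with cells thinned Cks1b did (log2 0.79). Without replicate 1 Cdk1 missed the test (log2 1.40, adjusted p = 0.0729), while Cks1b did so without replicate 2 (log2 0.86, adjusted p = 0.121) and rose to 2.50 without replicate 1.

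Ccnb2 and Tpx2 went the other way. Ccnb2, a B-type cyclin that activates CDK1, stood at 86.9 and 158 CPM against 287 and 402 CPM and was 2.80-fold lower (log2 -1.48, SE 0.22, adjusted p = 5.6e-07). Tpx2, which activates Aurora A on the spindle, stood at 112 and 89.8 CPM against 470 and 443 CPM (log2 -2.01, SE 0.20, adjusted p = 2.13e-11). Both calls held in each library alone. Ccnb1, the other main B-type cyclin, did not pass the test, with 67.4 and 37.2 CPM against 27.9 and 49.2 CPM, and its sums overlapped (log2 0.89, SE 0.40, adjusted p = 0.118; -0.31 without replicate 1). Ccna2, the S and G2 phase cyclin A, had 4 and 1 UMIs on each side, too few to tell the labels apart at this depth.

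The APC/C ubiquitin ligase ends mitosis by marking cyclins and securin for destruction. Of its 21 listed genes 5 were higher and 1 was lower (0 and 0 without replicate 1 by edgeR, 6 and 0 without replicate 2). Over all genes 11.6% were higher and 6.57% lower. Ube2c, the E2 enzyme that starts the ubiquitin chains of the APC/C, stood at 156 and 161 CPM against 11.9 and 65.6 CPM. It was 5.67-fold higher (log2 2.50, SE 0.52, adjusted p = 0.00109). Cdc20, the activator used in mitosis, stood at 80 and 68.1 CPM against 7.96 and 41 CPM (log2 2.15, SE 0.45, adjusted p = 0.000259). The progenitor sums of both genes rested on few UMIs, 3 and 8 for Ube2c and 2 and 5 for Cdc20. Of the 8 Ube2c UMIs 5 lay in 1 cell. The progenitor CPM of both genes differed several-fold between libraries, and the late deuterosomal CPM did not. Cdc20b, the Cdc20 relative that lies beside the miR-449 cluster, had 20 and 9 UMIs against 0 and 0. That is 2.68-fold higher when the progenitors are set at 3 UMIs over both libraries, a ratio that leaves out counting error in late deuterosomal cells. The core subunits Anapc13 (log2 0.93, SE 0.20) and Anapc11 (log2 0.69, SE 0.17), were higher, and the subunit Cdc26 was lower (log2 -0.60, SE 0.20). Pttg1, the securin that the APC/C destroys, stood at 284 and 211 CPM against 123 and 98.4 CPM (log2 1.28, SE 0.22, adjusted p = 1.44e-05). Without replicate 1 none of these APC/C calls held, with log2 0.83 for Cdc20 (adjusted p = 0.549), 1.39 for Ube2c (adjusted p = 0.232), 0.91 for Anapc13, 0.51 for Anapc11 and -0.71 for Cdc26, and Pttg1 was at 1.19 (adjusted p = 0.0708). Without replicate 2 Cdc20 was at 3.42, Ube2c at 3.80 and Cdc26 missed the test at -0.59.

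Of 12 chromosome condensation genes 4 were higher, 1 was lower and 7 did not pass, beside 11.6% and 6.57% of all genes. Without either replicate, and with cells thinned, 1 was higher and 1 lower. Top2a, the topoisomerase that untangles sister chromatids, stood at 173 and 201 CPM against 51.8 and 49.2 CPM and was 3.90-fold higher (log2 1.96, SE 0.31, adjusted p = 1.87e-06), in each library alone too. Kif22, a chromosome-bound kinesin, stood at 70.3 and 92.9 CPM against 19.9 and 16.4 CPM (log2 2.12, SE 0.59, adjusted p = 0.0103). The condensin subunit Ncaph had 16 and 7 UMIs against 0 and 0, 2.12-fold higher with progenitors set at 3 UMIs. Smc4 was at log2 0.62 (SE 0.21, adjusted p = 0.0283). Kif22, Ncaph and Smc4 each missed the test without either replicate, at log2 2.60 and 1.91 for Kif22 and 1.03 and 0.34 for Smc4, and Smc4 missed it under most other settings too, with DESeq2 size factors among them (0.57). Mki67, the coat protein of mitotic chromosomes used as a proliferation marker, was the exception. It had 6 and 1 UMIs in late deuterosomal cells and 31 and 34 in progenitors, which is 5.86 and 3.1 CPM against 123 and 279 CPM. In progenitors, 17 of the 31 UMIs lay in 1 cell of replicate 1 and 15 of the 34 in 1 cell of replicate 2. Mki67 was 30.1-fold lower (log2 -4.91, SE 0.92, adjusted p = 0.00103). The log2 fold change was -6.39 without replicate 1 and -4.30 without replicate 2, past the test in both.

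Among 15 cohesin and sister separation genes, 3 were higher and 1 was lower (1 and 0 without replicate 1, 2 and 1 without replicate 2). Over all genes 11.6% were higher and 6.57% lower. Besides Pttg1, the higher genes of this list were Stag2, a cohesin subunit (log2 1.48, SE 0.35), and Wapl, which opens cohesin rings (log2 1.02, SE 0.30). Rad21, the cohesin subunit that separase cuts, stood at 52.7 and 92.9 CPM against 143 and 156 CPM (log2 -1.07, SE 0.24, adjusted p = 0.000678). Stag2 and Rad21 missed the test without replicate 1 (log2 1.18 and -0.65) and Wapl without replicate 2 (log2 0.68; 1.63 without replicate 1).

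Kinetochore genes, whose products tie chromosomes to the spindle, were lower where they passed. Of 33 listed genes 0 were higher and 5 were lower by edgeR, beside 6.57% of all genes lower (3 lower without replicate 1). Cenpf stood at 59.5 and 86.7 CPM against 434 and 681 CPM and was 7.13-fold lower (log2 -2.83, SE 0.21, adjusted p = 3.89e-15). Cenpm was at 29.3 and 9.29 CPM against 195 and 180 CPM (log2 -2.87, SE 0.32; -4.18 without replicate 1), and Cenpq at log2 -2.39 (SE 0.31; -3.05 without replicate 1). Cenpa, the histone that marks centromeres, stood at 129 and 146 CPM against 291 and 320 CPM (log2 -1.06, SE 0.22, adjusted p = 0.000377), and Spc24, part of the outer kinetochore, was at log2 -1.22 (SE 0.33). Cenpa and Spc24 missed the test without replicate 1 (log2 -1.04 and -0.57), while Cenpf, Cenpm and Cenpq passed in each library alone.

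The chromosomal passenger genes Cdca8 and Birc5, which encode borealin and survivin, were both lower. Cdca8 stood at 24.4 and 3.1 CPM against 287 and 246 CPM, 13.3-fold lower (log2 -3.73, SE 0.37, adjusted p = 7.87e-09; -6.21 without replicate 1), and Birc5 at 18.5 and 18.6 CPM against 111 and 156 CPM (log2 -2.68, SE 0.36, adjusted p = 4.46e-08). Of the spindle checkpoint genes, Bub1b was lower (log2 -1.97, SE 0.41; -1.43 and past the threshold no longer without replicate 2). Bub3, which also serves in transcription and splicing, stood at 269 and 245 CPM against 79.6 and 107 CPM and was 3.18-fold higher (log2 1.67, SE 0.22, adjusted p = 2.37e-08), in each library alone too. In all, 1 of 17 genes of this list was higher and 3 were lower, beside 11.6% and 6.57% of all genes.

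Of 26 spindle genes 3 were higher, near the 11.6% of all genes, and 4 were lower, beside 6.57%. The counts were 0 and 2 without replicate 1, and the higher count was 1 with library totals, no filter or DESeq2 and 0 with equal cell numbers. Tacc3, which stabilises spindle microtubules, stood at 39 and 31 CPM against 151 and 156 CPM (log2 -1.92, SE 0.30, adjusted p = 1.6e-06), and Nde1, a dynein regulator, at 75.2 and 58.8 CPM against 183 and 238 CPM (log2 -1.39, SE 0.24, adjusted p = 1.46e-05). Ckap2, a microtubule nucleator, was at log2 -2.68 (SE 0.42), which became -1.42 without replicate 1, past the test no longer, and -3.27 without replicate 2. Psrc1 had 2 and 1 UMIs against 10 and 1, a ratio of 0.0755 with a 95% counting interval of 0.0135 to 0.286, and missed the test without replicate 1. Ckap5 (log2 0.58, SE 0.15), a microtubule polymerase that cells use outside mitosis too, and Ckap2l (log2 1.16, SE 0.42) were higher, and both missed the test without replicate 1, at 0.48 and 0.18. Kif18a had 6 and 9 UMIs against 0 and 0, 1.38-fold higher with progenitors set at 3 UMIs, and missed the test without either replicate.

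Of 16 cytokinesis genes 0 were higher and 2 were lower by edgeR, beside 11.6% of all genes higher and 6.57% lower. The lower count was 1 with no filter or with equal cell numbers, and 2 with DESeq2 or with cells thinned. Racgap1, of the central spindle complex, stood at 61.5 and 52.6 CPM against 239 and 189 CPM (log2 -1.79, SE 0.26, adjusted p = 6.7e-07), and Chmp4b, an ESCRT subunit, at log2 -0.56 (SE 0.20), which missed the test without either replicate. Among 11 lamina genes, Lmnb1 was 5.37-fold lower (42 and 65 against 247 and 344 CPM, log2 -2.43, SE 0.24, adjusted p = 1.69e-11) and Lmna was lower (log2 -0.85, SE 0.24), which missed the test without replicate 1 at -0.45. Lbr, the lamin B receptor, had 23 and 15 UMIs against 0 and 1, a ratio of 10.5 with a counting interval of 1.78 to 426, and missed the test without either replicate. Beyond these lists Cdca3, a trigger of Wee1 destruction, was among the 10 largest falls of all, at 12.7 and 15.5 CPM against 366 and 435 CPM (log2 -4.76, SE 0.30, adjusted p = 2.52e-17).

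**Figure D2:**
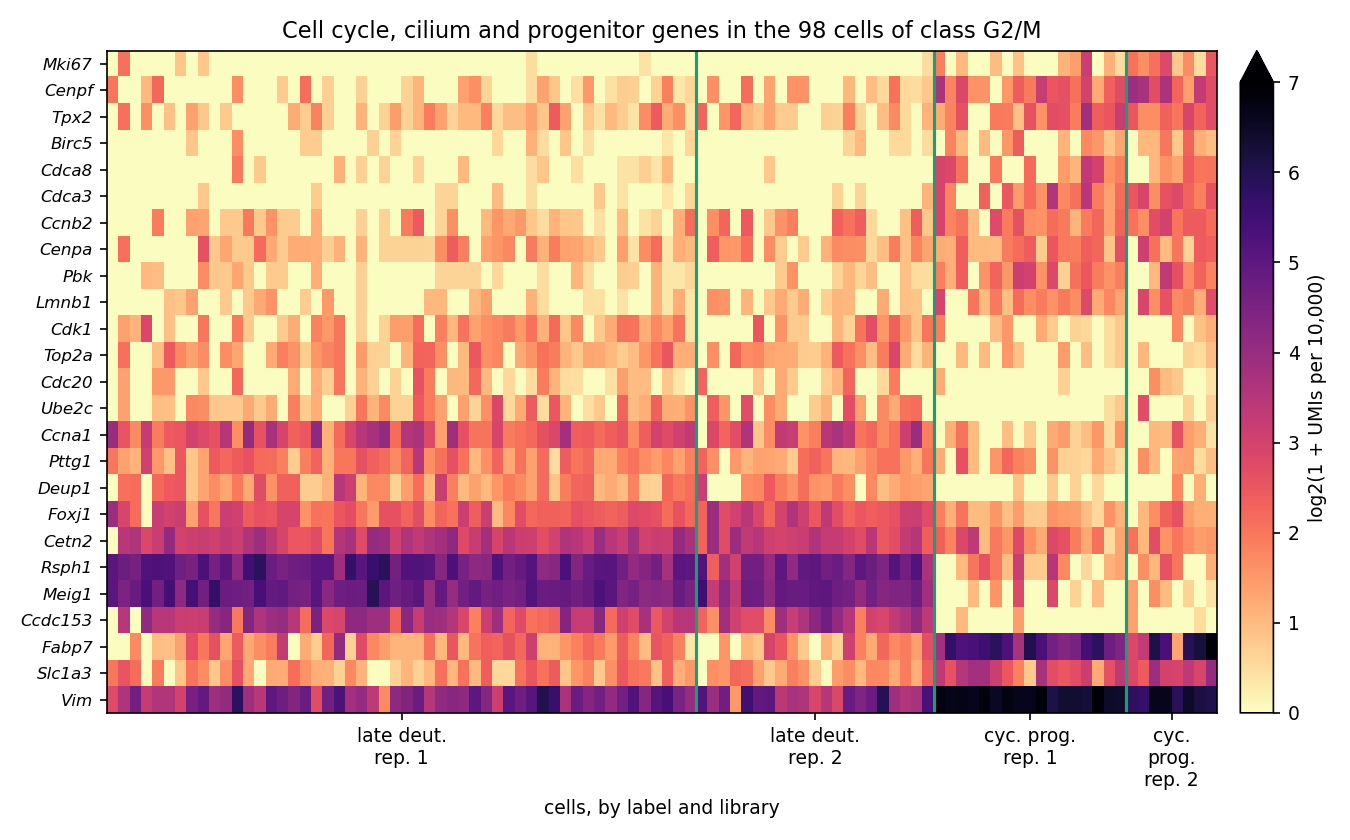
Each column is 1 of the 98 cells of class G2/M, grouped by label and library, and each line is a gene; colour gives log2(1 + UMIs scaled to a fixed total per cell), with values above 7 in black. Ccna1, Cdk1, Top2a and the cilium genes Rsph1, Meig1 and Ccdc153 are darker in the late deuterosomal cells, and Cenpf, Cdca3, Pbk, Fabp7 and Vim in the cycling progenitors.

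Shares of cells with a UMI were compared once each cell was thinned to 5000 UMIs, which left out 1 and 2 shallower late deuterosomal cells of replicates 1 and 2. Cdk1 was found in 33 of 70 late deuterosomal cells (47.1%) and 5 of 25 progenitors, and in 71.2% and 48.0% of all cells unthinned. Top2a was found in 39 of 70 and 5 of 25 cells (83.6% and 48.0% unthinned) and Ube2c in 37 of 70 and 2 of 25 (55 of 73 and 5 of 25 unthinned). In the opposite direction, Cenpf was found in 15.7% and 88.0% (50.7% and 96.0%), Cdca3 in 7.14% and 72.0% (17.8% and 88.0%) and Mki67 in 2.86% and 44.0% (8.22% and 68.0%). Free RNA can give a UMI in any droplet, and shares in 2 other labels are given for comparison. In oligodendrocytes, with a median of 9410 UMIs, the thinned shares were 4.08% for Cdk1, 6.12% for Top2a, 6.12% for Ube2c, 3.06% for Cenpf, 3.06% for Cdca3 and 2.04% for Mki67. The Mki67 share of late deuterosomal cells is within the interval of the oligodendrocyte share (0.248% to 7.18%). So are the Cdca3 share of late deuterosomal cells (0.636% to 8.69%) and the Ube2c share of progenitors (2.28% to 12.9%). Of the 30 Mki67 UMIs in oligodendrocytes 21 lay in 1 cell, and how far free RNA makes up these shares was not tested. Microglia of class G0, with a median of 17055 UMIs, held Cdk1 in 15.8% of cells (9.33% to 24.4%), an interval that holds the Cdk1 share of progenitors too.

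**Figure D3:**
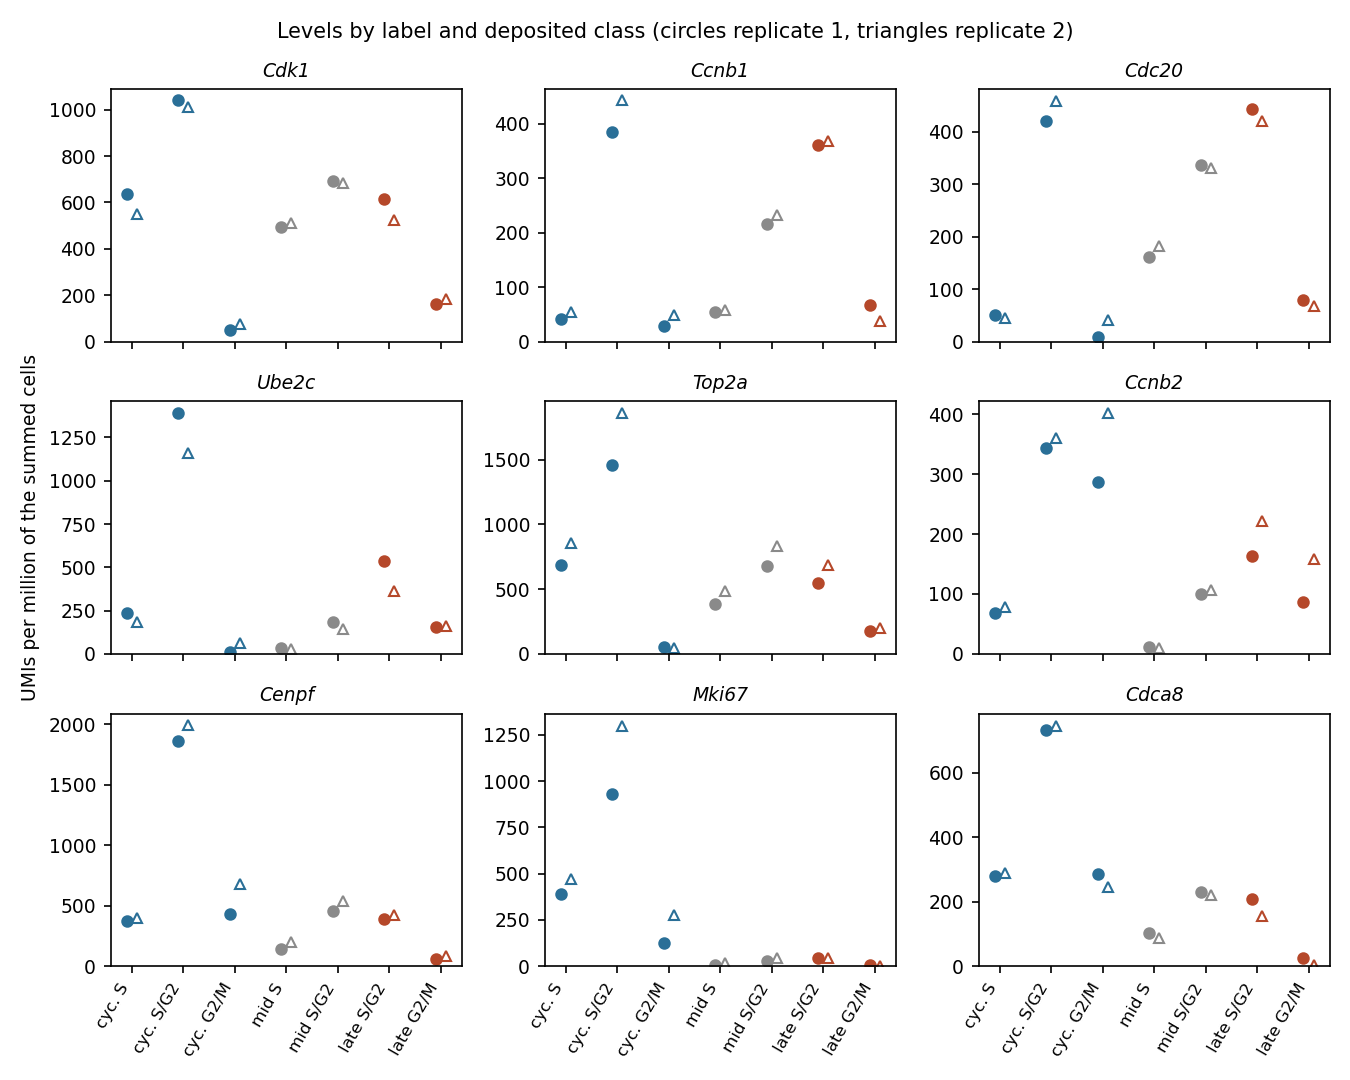
Levels of 9 cell cycle genes by label and deposited class, as CPM; circles are replicate 1, triangles replicate 2, cycling progenitors are blue, mid deuterosomal cells grey and late deuterosomal cells red. Cdk1, Ube2c and Top2a reach their top in cycling progenitors of class S/G2, and in class G2/M they are lower in cycling progenitors than in late deuterosomal cells.

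Whether the label difference in class G2/M differs from that in class S/G2 was tested as a difference of differences, with mid deuterosomal cells (693 and 292 cells) against cycling progenitors (206 and 97 cells) in S/G2. The signed log2 difference was larger in G2/M for 438 genes (3.36% of those tested) and smaller for 161 (1.23%) by edgeR, 4.59% in either direction. The test reuses the G2/M sums described so far. Larger and smaller here refer to the signed value and not to the size of the difference. Cenpa, lower in late deuterosomal cells of class G2/M (-1.06), thus counts as larger (1.10), and Cenpf (-2.83 in G2/M) as smaller (-0.94). The deuterosomal stage differs between the classes (late in G2/M, mid in S/G2), so this test cannot tell stage and class apart. Late deuterosomal cells of class S/G2 (335 and 92 cells) were in the fit but did not enter this test. Of the 146 mitosis and APC/C genes, 31 (21.2%) had a larger and 3 (2.05%) a smaller value. Of 12 condensation genes 9 were larger (2 without replicate 1 and 4 without replicate 2), and of 58 DNA replication genes 23 (8 and 16). Ube2c showed it most among the genes named by size. In S/G2 it stood at 1390 and 1160 CPM in progenitors and 185 and 141 CPM in mid deuterosomal cells, and in G2/M at 11.9 and 65.6 CPM in progenitors and 156 and 161 CPM in late deuterosomal cells. Late deuterosomal cells of class S/G2 stood at 539 and 362 CPM. The order of deuterosomal cells and progenitors was opposite in the 2 classes, and the difference of differences was 5.41 (SE 0.45, adjusted p = 5.18e-08). Top2a gave 3.03 (adjusted p = 5.29e-10), Cdk1 2.13 (adjusted p = 2.17e-06), Cdc20 2.48, Ccnb1 1.70 and Bub3 1.90. Without replicate 1 the counts over all genes fell to 82 and 28, and to 7 and 1 among the 146 genes, and Cdk1 (1.94), Cdc20 (1.27) and Ccnb1 (0.59) missed the test. Without replicate 2 they were 208 and 70, and 20 and 1.

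Other large values in this test belonged to genes of several kinds. Nusap1, which bundles spindle microtubules, gave 4.93, Kif11, the kinesin that parts the poles, 3.89, and the linker histone Hist1h1b 3.82. Rrm2, which makes deoxynucleotides, gave 3.90, Dut, which removes dUTP, 3.75, the E2 enzyme Ube2t of the Fanconi pathway 3.55, and the relaxin gene Rln1 3.51. Smaller values were found for Myb (-4.87; -6.68 without replicate 1), a transcription factor of early multiciliated cells, for Wdr12 (-2.69), a ribosome biogenesis factor, and for D1Ertd622e (-2.09) and Cdca8 (-2.09). Mbd1, a reader of methylated DNA, gave -1.94, Map9, a spindle and cilium microtubule protein, -1.93, the noncoding RNA Kcnq1ot1 -1.82 and Cmas, which activates sialic acid, -1.79. The signed value was below 0 for Cenpf (-0.94) and Cdc26 (-0.91), and above 0 for Cenpa (1.10), Tubb5 (1.92) and Tubb4b (0.83). Without replicate 1, Kif11, Ube2t, D1Ertd622e, Mbd1, Map9 and Cmas missed the test (3.99, 1.75, -2.36, -0.94, -0.83 and -1.18). So did Cenpf (-1.02), Cdc26 (-1.03), Cenpa (1.10), Tubb5 (1.59) and Tubb4b (0.72), and the values of Ube2c (4.40), Rrm2 (4.91), Dut (5.67), Rln1 (5.69), Wdr12 (-4.35) and Cdca8 (-4.49) moved by over 1.5-fold. Without replicate 2, Myb (-3.01), D1Ertd622e (-2.04), Mbd1 (-2.37), Cenpf (-0.85), Cenpa (1.09) and Cdc26 (-0.91) missed it, and Ube2c (6.60), Hist1h1b (3.20), Dut (3.01), Ube2t (10.70), Cdc20 (3.64) and Wdr12 (-2.10) moved by as much. Myb had 28 UMIs in the progenitors of class G2/M, 16 of them in 1 cell.

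Against non-cycling progenitors (2347 and 1210 progenitors I and 1754 and 744 progenitors II, all of class G0), 24.0% of the genes tested were higher and 20.3% lower in late deuterosomal cells of class G2/M (44.2% in either direction). Cells of class G1 with these labels were under 20 in a library and did not enter. Of the 146 mitosis and APC/C genes 85 (58.2%) were higher and 6 (4.11%) lower. Genes that were lower than in cycling progenitors were among those above this resting level, with a log2 fold change of 6.76 for Ccnb2, 4.82 for Cenpa, 4.41 for Spc24, 4.37 for Bub1b, 4.00 for Tpx2, 3.19 for Cdca3, 3.07 for Cenpf and 2.61 for Cdca8. So were those that were higher than in cycling progenitors, with 6.40 for Ube2c, 5.29 for Ckap2l, 5.23 for Ccna1, 4.78 for Cdc20, 3.85 for Top2a and 2.36 for Cdk1. Ccnb1 was at 4.69, and Bub1, a checkpoint kinase, at 5.62 with 9 and 6 UMIs. Mki67 did not pass (1.32, adjusted p = 0.481), with a resting level of 1.16 to 3.04 CPM, and neither did Foxm1 (-0.62, adjusted p = 0.768). Without replicate 1, Cdca8 missed the test (0.32), Ccnb1 was at 4.01, Ckap2l at 4.68 and Bub1 at 7.49, and 50 of the 146 genes were higher, while Bub1 was at 4.97 without replicate 2.

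DNA replication genes summed to like levels in both labels, 1370 and 1340 CPM against 1380 and 1300 CPM, and to 4970 and 5800 CPM in cycling progenitors of class S/G2. Of 58 listed genes 3 were higher and 5 were lower, beside 11.6% and 6.57% of all genes, and 50 did not pass (0 and 2 without replicate 1, 2 and 3 without replicate 2). Mcm5, a subunit of the replicative helicase, had 0 and 0 UMIs in late deuterosomal cells and 9 and 5 in progenitors. It was 16.9-fold lower when the former are set at 3 UMIs over both libraries, and passed in each library alone. The helicase subunits Mcm6 (log2 -1.73, SE 0.45) and Mcm7 (log2 -1.52, SE 0.53) and the thymidylate synthase gene Tyms (log2 -1.30, SE 0.47) were lower. Pole2, of the leading strand polymerase, had 0 and 1 UMIs against 3 and 2, a ratio of 0.0554 with a counting interval of 0.00117 to 0.495. Gins4 (log2 1.79, SE 0.40), Orc3 (log2 1.42, SE 0.43) and Rfc2 (log2 0.99, SE 0.29), which serve in helicase activation, origin binding and clamp loading, were higher. Without replicate 1 all of these but Mcm5 missed the test, with log2 -2.31 for Mcm6, 0.01 for Mcm7, -0.99 for Tyms, 1.39 for Gins4, 1.08 for Orc3 and 1.05 for Rfc2, and without replicate 2 Mcm6 (-1.57), Tyms (-1.42) and Rfc2 (0.95) did. The repair gene Brca2 had 15 and 9 UMIs against 0 and 0, 2.22-fold higher with progenitors set at 3 UMIs. It missed the test without either replicate.

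Genes of the G1 decision were lower where they passed, 4 of 8 with 0 higher by edgeR (0 lower without replicate 1, 2 without replicate 2). Ccnd1, the D-type cyclin that growth signals induce, had 4 and 1 UMIs against 27 and 13 (3.9 and 3.1 CPM against 107 and 107 CPM, log2 -4.73, SE 0.92, adjusted p = 0.00101). Ccnd2 (log2 -2.01, SE 0.61), Cdk4 (log2 -0.93, SE 0.16) and Cdk6 (log2 -0.77, SE 0.28) were lower too. Over all genes 11.6% were higher and 6.57% lower. Of 16 CDK inhibitors and p53 targets 4 were lower and 0 higher by edgeR: Cdkn2c (log2 -1.96, SE 0.45), Gadd45g (log2 -1.76, SE 0.39), Trp53 (log2 -1.59, SE 0.44) and Ccng1 (log2 -1.56, SE 0.33). Foxm1, the factor that drives G2 genes in dividing cells, had 1 and 0 UMIs against 3 and 3, a ratio of 0.0462 with a counting interval of 0.001 to 0.38, and E2f5 was lower (log2 -1.85, SE 0.43). All of these missed the test without replicate 1 except E2f5 (-2.57). At that setting Ccnd1 was at -5.00, Ccnd2 at -1.40, Cdk4 at -0.84, Cdk6 at -0.82, Cdkn2c at -2.53, Gadd45g at -1.61, Trp53 at -1.63 and Ccng1 at -0.77. Without replicate 2, Ccnd2 (-2.38), Cdk6 (-0.75), Foxm1 (-3.50) and E2f5 (-1.56) missed it.

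Cilium genes were higher in late deuterosomal cells, beside 11.6% of all genes, though the label may itself rest on such genes. The axoneme is the microtubule core of the cilium, and 46 of 51 axoneme genes were higher and 0 lower, with a median log2 fold change of 4.02 (30 of them without replicate 1 and 39 without replicate 2). Their sum was 16800 and 16800 CPM in late deuterosomal cells and 1450 and 623 CPM in progenitors. In thinned cells the medians were 84 and 78 axoneme UMIs per late deuterosomal cell and 5 and 4 per progenitor, with 1 progenitor of replicate 1 at 42. Ccdc153 stood at 963 and 1040 CPM against 11.9 and 16.4 CPM and was 82.6-fold higher (log2 6.37, SE 0.93, adjusted p = 0.000101). Meig1, a manchette and cilium protein, stood at 2660 and 2270 CPM against 87.6 and 49.2 CPM (log2 5.24, SE 0.64), and Rsph1, of the radial spoke, at 2850 and 2440 against 203 and 131 CPM (log2 4.02, SE 0.30). A Meig1 UMI was held by 5 of 25 thinned progenitors, by 9.18% of oligodendrocytes (4.29% to 16.7%) and by 56.4% of microglia, with up to 80 UMIs in 1 microglial cell, and how far free RNA adds to these shares was not tested.

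Several of the other largest rises rested on few UMIs in progenitors. Zmynd10, a dynein arm assembly factor, had 1 and 2 UMIs there, a ratio of 37.1 (counting interval 12.6 to 181), and Dnah6, an inner arm dynein chain, 1 and 1, a ratio of 37.8 (10.4 to 314). Cfap161 gave a ratio of 36.6 (10 to 303), Cep126 34.5 (11.7 to 168) and Ppp1r32 29.3 (9.92 to 143). Odf3b (log2 5.23, SE 1.22), the adenylate kinase Ak7 (log2 4.95, SE 0.95) and Morn5 (log2 4.75, SE 0.40) rose too. The central pair gene Spag17 had 107 and 64 UMIs against 0 and 0, at least 15.8-fold higher, and the dynein chain gene Dnah3 90 and 35 against 0 and 0, at least 11.5-fold higher. The smallest passing axoneme changes were those of Dnah7b (log2 1.94, SE 0.61) and Drc1 (log2 1.96, SE 0.36; 3.67 without replicate 1). Dnah6 (4.33), Cfap161 (4.64), Odf3b (5.53), Ppp1r32 (3.84), Ak7 (14.26, with 0 progenitor UMIs left), Dnah3 and Dnah7b (2.15) missed the test without replicate 1, and Dnah7b (1.82) without replicate 2. The fitted value of Zmynd10 was 5.28, and 3.94 and 6.40 without replicates 1 and 2, that of Ppp1r32 was 4.97 and 6.00 without replicate 2, that of Ak7 was 4.28 without replicate 2, and Morn5 was at 5.59 without replicate 1.

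**Figure D4:**
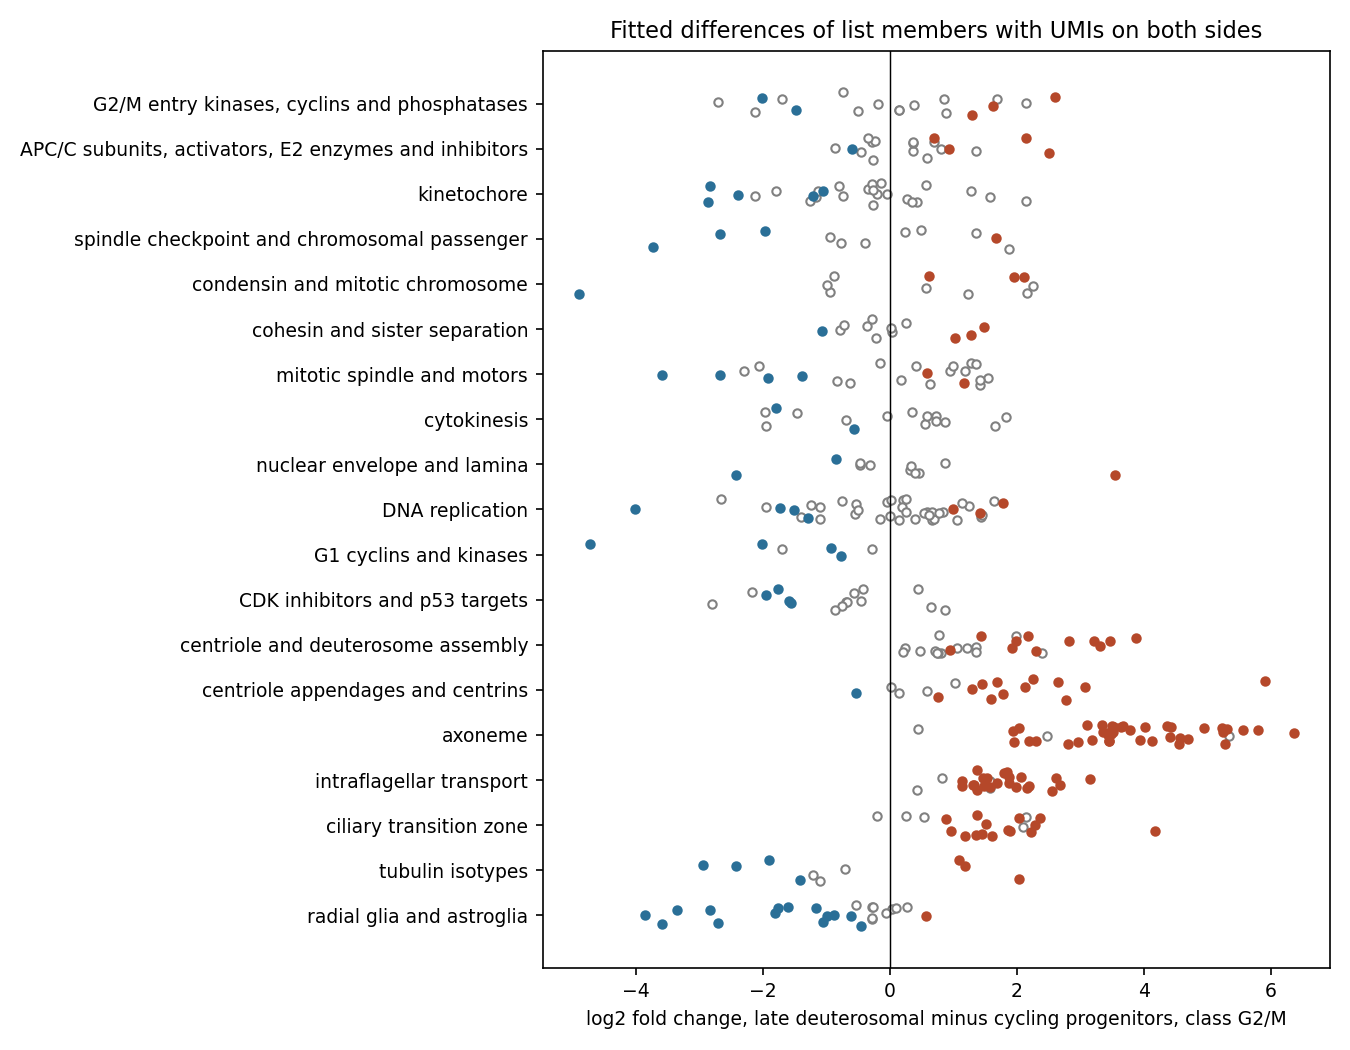
Fitted log2 fold changes (late deuterosomal minus cycling progenitors, class G2/M) of the members of 19 gene lists, 1 point a gene; red points passed the test upward, blue points downward and open points did not pass, and members with 0 UMIs on 1 side are not drawn. The G2/M entry list has red and blue points, the kinetochore list blue points alone, and all red points of the axoneme list lie between 1.94 and 6.37.

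Centriole genes were higher where they passed, with 11.6% of all genes higher and 6.57% lower. Of 28 centriole and deuterosome assembly genes 12 were higher and 0 lower (3 without replicate 1, 8 without replicate 2). Deup1, the deuterosome scaffold, stood at 252 and 192 CPM against 15.9 and 49.2 CPM (log2 3.22, SE 0.49, adjusted p = 4.73e-05), and was at 2.06 without replicate 1, where it missed the test, and 4.07 without replicate 2. The deuterosome protein gene Ccdc78 had 1 and 1 progenitor UMIs, a ratio of 10.8 (counting interval 2.89 to 90.8), and the centriole lumen gene Poc5 13.4 (3.62 to 112). Ccdc78 missed the test without replicate 1 and Poc5 passed in each library. Cep63 (log2 1.93, SE 0.45) was at 3.90 without replicate 1 and 1.29, no longer past the test, without replicate 2. Stil, a procentriole initiator, had 12 and 2 UMIs against 0 and 0, 1.29-fold higher with progenitors set at 3 UMIs. It missed the test without either replicate. Plk4 and Sass6, which start each new centriole, did not pass, with 24 and 5 against 2 and 3 UMIs and 15 and 2 against 2 and 1 UMIs.

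Of 17 appendage and centrin genes 12 were higher and 1 was lower, beside 11.6% and 6.57% of all genes. Cetn2 stood at 959 and 777 CPM against 303 and 230 CPM (log2 1.79, SE 0.16, adjusted p = 2.3e-13), and Cetn4 at 292 and 325 CPM against 83.6 and 57.4 CPM (log2 2.13, SE 0.34). Cep164 of the distal appendage (log2 2.65, SE 0.43; 1.98 and 3.33 without replicates 1 and 2) and Cep128 of the subdistal one (log2 3.07, SE 0.46) rose. Fam92b, which works with Cby1 at the basal body, had 2 and 0 progenitor UMIs, a ratio of 57.3 (counting interval 15.8 to 475), and its relative Fam92a was the lower gene (log2 -0.53, SE 0.17), which missed the test without either replicate. Among 28 intraflagellar transport genes 23 were higher and 0 lower, and among 21 transition zone genes 16 and 0 (10 higher without replicate 1 and 8 with cells thinned). Ift20 (log2 1.98, SE 0.14), Ift43 (log2 2.55, SE 0.20) and Cep290 (log2 1.90, SE 0.23) passed in each library, as did B9d1 (log2 1.51, SE 0.19) and Arl13b (log2 2.28, SE 0.40). Ift172 (log2 3.16, SE 0.46) was at 2.15, past the test no longer, without replicate 1 and at 3.93 without replicate 2, and Dync2h1 (log2 2.62, SE 0.37) at 2.01 without replicate 1. Iqcb1 had 0 and 1 progenitor UMIs, a ratio of 16.6 (counting interval 2.87 to 667). Ttc30b (log2 1.13, SE 0.32) and Ahi1 (log2 0.89, SE 0.29) had the smallest passing changes of their lists and missed the test without either replicate, at 1.27 and 1.00, and at 1.27 and 0.70.

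Of 14 regulators of the lineage 2 were higher and 1 lower, near the shares of all genes (11.6% and 6.57%). Foxj1, the master factor of motile cilia, stood at 452 and 632 CPM against 139 and 197 CPM (log2 1.81, SE 0.27, adjusted p = 2.9e-05). Trp73 had 16 and 9 UMIs against 0 and 0, 2.31-fold higher with progenitors set at 3 UMIs, though it missed the test without either replicate. Gmnc, Ccno and Myb, which act early, did not pass, with 12 and 3 against 2 and 9 UMIs, 25 and 10 against 1 and 10 UMIs, and 71 and 19 against 6 and 22 UMIs. Without replicate 1 Gmnc passed the test downward (log2 -2.89, adjusted p = 0.0473).

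Of 11 tubulin isotypes 3 were higher and 4 lower, beside 11.6% and 6.57% of all genes. Tubb4b, the main ciliary beta-tubulin, stood at 5480 and 4780 CPM against 1430 and 1270 CPM (log2 2.04, SE 0.12, adjusted p = 1.16e-19), and the alpha-tubulin genes Tuba1a (log2 1.09, SE 0.12) and Tuba1b (log2 1.18, SE 0.17) were higher. Tubb5 (125 and 108 against 314 and 426 CPM, log2 -1.42, SE 0.28), Tubb2b (log2 -1.91, SE 0.24), Tubb6 (log2 -2.94, SE 0.55) and Tuba1c (log2 -2.43, SE 0.81) were lower. Tuba1c missed the test without either replicate (-2.72 and -0.93). Tubulin genes are close copies of each other, and whether the assignment of reads among them affects these values was not tested.

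Radial glia genes fell with the label. Of 25 genes 14 were lower and 1 was higher, beside 6.57% and 11.6% of all genes, with a median log2 fold change of -0.62. Fabp7, the brain lipid carrier, stood at 294 and 263 CPM against 3470 and 6230 CPM (log2 -3.86, SE 0.32, adjusted p = 2.04e-07; -4.47 without replicate 1), Vim, the intermediate filament, at 2340 and 2180 CPM against 9300 and 7240 CPM (log2 -1.76, SE 0.16), and Slc1a3, the glutamate transporter, at 204 and 192 CPM against 657 and 976 CPM (log2 -1.81, SE 0.15). Tnc (log2 -3.59, SE 0.87), Id1 (log2 -3.36, SE 0.61), Id3 (log2 -2.83, SE 0.45; -4.85 without replicate 1) and Nes (log2 -2.71, SE 0.30) were lower, and Apoe (log2 0.57, SE 0.10) was higher. Tnc (-2.89), Id1 (-3.48) and Apoe (0.38) missed the test without replicate 1, and Tnc was at -4.38 without replicate 2. The remaining largest falls were Mest (log2 -4.84, SE 0.55; -6.59 without replicate 1), Lgals1 (log2 -3.76, SE 0.32; -4.37 without replicate 1), Hacd4 (log2 -3.41, SE 0.30), Fxyd6 (log2 -3.23, SE 0.46; -4.05 without replicate 1), Lingo1 (log2 -3.22, SE 0.42) and the growth factor gene Ptn (log2 -3.08, SE 0.20). Of the Notch pathway genes, 3 of 13 tested were lower: Notch1 (log2 -1.95, SE 0.41; -3.10 without replicate 1 and -0.76, past the test no longer, without replicate 2), Notch2 (log2 -1.77, SE 0.39) and the target Hes5, whose 14 UMIs all lay in the progenitors of replicate 2. Hey1, another target, was higher (log2 1.96, SE 0.43; missed without replicate 1 at 2.33). Over all genes 11.6% were higher and 6.57% lower.

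Some markers of other cell types were higher in the progenitors. Olig1, of the oligodendrocyte lineage, had 3 and 2 UMIs in late deuterosomal cells and 21 and 26 in progenitors, and Olig2 1 and 0 against 4 and 8. A UMI of either was held by 3 of 52 and 2 of 21 late deuterosomal cells and by 6 of 17 and 4 of 8 progenitors. The 12 oligodendrocyte lineage genes summed to 229 and 223 CPM against 163 and 328 CPM, with 5 members at 0 in late deuterosomal cells and 7 in progenitors. Of its 7 tested genes 2 were lower in late deuterosomal cells, beside 6.57% of all genes. Cnp, a myelin enzyme gene, was higher (log2 2.18, adjusted p = 8.9e-08). The neuroblast list summed to 32.2 and 37.2 CPM against 111 and 148 CPM, with Stmn2 at 6 and 0 UMIs against 25 and 13, and 5 and 8 of its 12 members at 0. The fibroblast, mural and endothelial list summed to 434 and 161 CPM against 2290 and 812 CPM, nearly all of it Acta2 (log2 -2.26, SE 0.49), with 5 and 6 of 12 members at 0, and the microglia list, with no call among 2 tested genes, to 32.2 and 34.1 CPM against 47.8 and 32.8 CPM. In an alternative chosen after seeing the data, the cells holding an Olig1 or Olig2 UMI were left out. Then 1180 genes were higher and 526 lower, and 15 and 15 of the mitosis and APC/C genes. Of 138 named genes 26 missed the test, among them Cenpa (-0.75), Spc24 (-1.10), Foxm1 (-3.27), Ccnd1 (-2.61), Trp53 (-1.29), Lmna (-0.76), Stag2 (1.06) and Tubb6 (-0.39). Cdk1 (1.54), Top2a (2.01), Ccna1 (2.66), Ube2c (3.01), Cenpf (-2.87), Cdca8 (-3.40), Cdca3 (-4.75), Ccnb2 (-1.23) and Mki67 (-4.67) passed it. The part of the other marker lists in these results was not tested.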

How the data were processed

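Per the labels, libraries were made with the Chromium Single Cell 3′ v3 kit and run on a NextSeq 500. Per the submitters' processing notes, Cell Ranger 3 and 5.0.1 and mm10 were used; no source used here ties a version to a library. The deposited values are raw UMI counts per gene and cell, with the authors' metadata giving each cell's label and class. How doublets were treated is not given, and no doublet caller was run. Counts were summed per replicate, label and class where both libraries held at least 20 cells, plus the compared cycling progenitors (17 and 8 cells), which gave 32 sums in 16 groups. edgeR 4.0.16 (R 4.3.3; TMM, robust quasi-likelihood, low counts filtered, two-sided) was fitted with the library as block and 15 residual degrees of freedom to 13052 of 32287 genes, and p-values were Benjamini-Hochberg adjusted over all of them. Both labels come from the same library, which pairs them. Deviations of same-library sums correlated at a median of 0.233 over pairs of groups (lowest 0.0443; 0.0543 for the compared pair). Only class G0 entered the non-cycling progenitors, since class G1 held under 20 cells in a library. Intervals are exact (Clopper-Pearson for shares) and cover counting error only. The scripts were tested on simulated counts.

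Named genes were the 10 largest changes each way past the test (mean log2 CPM of at least 5, same direction in both libraries), up to 3 highest and 3 lowest passing members of each list, a set of cell cycle and multiciliation genes, and the 8 largest each way in the difference of differences. The members and lists were chosen with earlier results of these data known. Alternatives were DESeq2 1.42.0, other scaling, no filter, no block, leaving out each replicate, equal cell numbers, thinning to 5000 UMIs a cell and leaving out the deepest 5% of cells.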

Additional observations from a re-analysis of the deposited data

Results flagged for a closer look

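The results here are differences of differences, the label difference in class G2/M minus that in class S/G2, that passed edgeR's quasi-likelihood test of that difference. The difference is of late deuterosomal cells in G2/M and of mid deuterosomal cells in S/G2, each from cycling progenitors. Stage and class therefore change together, and this test cannot tell them apart. Late deuterosomal cells of class S/G2 were in the fit but did not enter this test. It passed for 438 genes upward and 161 downward. Upward were Ube2c (5.41), Nusap1 (4.93), Rrm2 (3.90), Kif11 (3.89), Hist1h1b (3.82), Dut (3.75), Ube2t (3.55), Rln1 (3.51), Top2a (3.03), Cdc20 (2.48), Cdk1 (2.13), Tubb5 (1.92), Bub3 (1.90), Ccnb1 (1.70), Cenpa (1.10) and Tubb4b (0.83). Downward were Myb (-4.87), Wdr12 (-2.69), D1Ertd622e (-2.09), Cdca8 (-2.09), Mbd1 (-1.94), Map9 (-1.93), Kcnq1ot1 (-1.82), Cmas (-1.79), Ift20 (-1.06), Cenpf (-0.94), Cdc26 (-0.91) and Cby1 (-0.85). Ift20 (-1.16) and Cby1 (-0.16) missed the test without replicate 1. Without replicate 1 the counts were 82 and 28.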

How the results depend on the processing

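For late deuterosomal against cycling progenitors in class G2/M, leaving out 1 replicate gave 522 to 1001 genes higher and 367 to 574 lower. Thinned to 5000 UMIs per cell, 736 were higher and 304 lower, with equal cell numbers 828 were higher, and with only the 4 sums and no replicate block 842 and 568. Without cells holding Olig1 or Olig2 UMIs, chosen after seeing the data, 526 were lower. Against non-cycling progenitors, leaving out 1 replicate gave 1655 to 2889 higher and 1211 to 1898 lower, thinning 1697 and 1274, and equal cell numbers 1404 lower. For the difference of differences, leaving out 1 replicate gave 82 to 208 larger and 28 to 70 smaller, equal cell numbers 52 and 27, thinning 142 and 25, no replicate block 242 and 76, and DESeq2 282 smaller. Without the replicate block the first comparison gave 1259 and 657. Of 140 named genes, 66 missed the test without replicate 1, 36 without replicate 2, 56 thinned, 44 with equal cell numbers and 16 without the block. Values that changed sign were, without replicates 1 and 2, Ccnb1 (-0.31, 1.36), Mcm7 (0.01, -1.94), Myb (-1.52, 1.63), Gmnc (-2.89, 0.65) and Ccno (-1.31, 2.70), and thinned Gmnc (0.73) and Jund (-0.02). The cause was not tested. The depth of the progenitors limits the calls: 7624 tested genes had under 10 UMIs there and 1393 had 0, 205 of which were called.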

Other observations

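Immediate early and stress genes, which dissociation can induce, were counted too. Of 13 genes 3 were higher and 1 was lower in late deuterosomal cells of class G2/M, beside 11.6% and 6.57% of all genes. The list summed to 875 and 1630 CPM against 840 and 1230 CPM. Fos was at log2 1.11 and Jund at 0.57, and Jun was at -1.26, and all 3 missed edgeR's test without either replicate. Zfp36 was at log2 2.11, and missed it without replicate 2 at 1.11 (3.54 without replicate 1).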
